A study of Homo sapiens with 4 samples.

Results

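The KLF genes encode zinc finger transcription factors, and 10 of them were examined here in a human bladder cancer line after knockdown of the RNA methyltransferase NSUN2. They were taken by symbol: KLF2, KLF3, KLF4, KLF5, KLF6, KLF7, KLF9, KLF10, KLF11 and KLF13 each matched 1 Ensembl gene, 10 of the 62893 genes in the count table. Poly(A) RNA was sequenced from T24 cells, a line derived from a carcinoma of the urinary bladder. The cells had received siRNA against NSUN2 (siNSUN2, 2 libraries) or control siRNA (siControl, 2 libraries). How many siRNAs targeted NSUN2, and their sequences, are not stated in the sources used here. Effects of the loss of NSUN2 and effects of the siRNA on other transcripts cannot be told apart. The comparison asks how much the mRNA of each KLF factor differed between the 2 treatments.

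KLF factors bind GC boxes and CACCC boxes in promoters through zinc fingers at the carboxyl end of the protein, which are much alike across the family, whereas the rest of the protein differs and recruits activators or repressors. KLF2, KLF4, KLF5, KLF6 and KLF7 are mostly described as activators, KLF3 as a repressor that binds the corepressor CtBP, and KLF9, KLF10, KLF11 and KLF13 as factors that bind the corepressor SIN3A. In stratified and transitional epithelia KLF5 is known for the proliferating basal layer and KLF4 for differentiation and exit from the cell cycle. Several family members, KLF4, KLF6 and KLF10 among them, are rapidly induced by serum, stress or TGF-beta in other cells.

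Total gene counts ran from 33633249 to 215936965 per library, so 1 unit of CPM, which scales a gene's counts to the library total, stood for 33.6 to 216 counts. NSUN2 (ENSG00000037474) had 29.6 and 30.1 CPM in siNSUN2 cells, against 281 and 284 CPM in siControl cells, a log2 fold change of −3.24 (SE 0.0429). Of 6 markers fixed for T24 cells, 5 passed the low-count filter and KRT19 did not, with at most 3 counts in any library. Their summed level was 4032 to 4066 CPM in siNSUN2 cells and 3453 to 3493 CPM in siControl cells. VIM had 1752 and 1787 CPM in siNSUN2 cells, against 1025 and 1035 CPM in siControl cells. KRT7 was also higher in siNSUN2 cells, whereas CD44, KRT8 and KRT18 had lower means there, so the higher sum rests mostly on VIM. Of 5 blood markers 4 had any counts, and their sum was 1.22 to 2.11 CPM in siNSUN2 cells and 0.718 to 0.946 CPM in siControl cells. The 3 endothelial markers, with PECAM1 at 0 in every library, summed to 2.35 and 10.8 CPM in siNSUN2 cells, mostly VWF, and to 0.638 and 0.389 CPM in siControl cells. All 5 fibroblast markers had counts, and they summed to 3.12 and 3.60 CPM in siNSUN2 cells and to 1.02 and 2.04 CPM in siControl cells. Whether the cells behind these marker counts had a part in the results below was not tested. Nothing in the labels says whether libraries of a group came from separate cultures, so p-values here reflect spread among these libraries alone, and that spread may be technical.

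Of the 10 KLF genes, 9 rose after NSUN2 siRNA, none fell, and KLF9 did not pass the test. All 10 passed the low-count filter. They were chosen with earlier results of these data known, and of all 13 KLF genes tested 9 rose and 1 fell. Among all 16889 genes tested, 27.1% were called higher and 25.5% lower, together 52.6%, at an adjusted p under 0.05 (edgeR quasi-likelihood test, Benjamini-Hochberg adjustment over all genes tested). The median log2 fold change of the 10 genes was 0.83, against 0.03 over all genes tested. In 9 of the 10 genes both siNSUN2 libraries lay above both siControl libraries, an order that 38.6% of all genes tested showed. The largest log2 fold changes were 1.22 for KLF4, 1.13 for KLF11, 1.09 for KLF13 and 1.01 for KLF6. The order and size of these depended on the setting, with KLF13 at 0.75 after a correction for GC content and length and KLF6 at 0.88 without siControl replicate 1. The 9 genes that rose stood between the 66.6th and the 95.1th percentile of the log2 fold changes of all genes tested. In bulk RNA of this kind, a change in the number of cells that express a gene and a change in RNA per cell cannot be told apart.

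**Figure D1:**
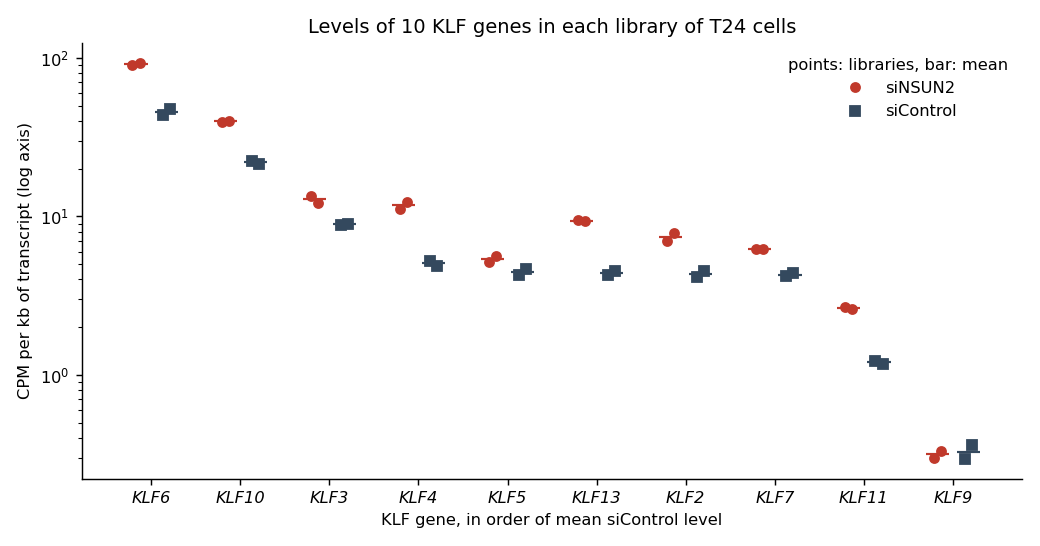
Level of each KLF gene in CPM per kb of its longest coding transcript, on a log axis, in the 2 siNSUN2 libraries (circles) and the 2 siControl libraries (squares), with the mean as a bar. KLF6 was the most abundant of the 10 in both groups, and the siNSUN2 libraries lay above the siControl libraries for every gene except KLF9.

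Levels can be compared between genes only per length of transcript. In siNSUN2 cells KLF6 stood first at 91.6 ± 1.51 CPM per kb (mean ± SD, n = 2 here and below), followed by KLF10 at 39.9 ± 0.364, KLF3 at 12.8 ± 0.928, KLF4 at 11.8 ± 0.756 and KLF13 at 9.38 ± 0.107. Then came KLF2 at 7.46 ± 0.606, KLF7 at 6.21 ± 0.00353, KLF5 at 5.40 ± 0.350, KLF11 at 2.63 ± 0.0478 and KLF9 at 0.317 ± 0.0227 CPM per kb. KLF3 and KLF4 overlapped in this group. In siControl cells KLF6 stood first at 45.6 ± 2.76 CPM per kb, with KLF10 at 21.9 ± 0.509 and KLF3 at 8.89 ± 0.103. KLF4 at 5.06 ± 0.273 CPM per kb came next. KLF5 at 4.44 ± 0.278, KLF13 at 4.41 ± 0.154, KLF2 at 4.32 ± 0.282 and KLF7 at 4.29 ± 0.131 CPM per kb overlapped one another, and the lowest were KLF11, at 1.23 and 1.17 in the 2 libraries, and KLF9 at 0.328 ± 0.0460. KLF4, KLF13, KLF2, KLF7 and KLF5, which lay within a narrow range in siControl cells, were therefore spread out in siNSUN2 cells, with KLF5 at the low end. The summed level of the 10 genes was 186 and 189 CPM per kb in siNSUN2 libraries, against 98.3 and 103 CPM per kb in siControl libraries. KLF6 made up 48.7% and 48.9% of that sum in siNSUN2 libraries, against 44.4% and 46.4% in siControl libraries.

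Among the factors described as activators, KLF4 and KLF6 had the largest log2 fold changes, with KLF4 first in the uncorrected fit and KLF6 first after the correction for GC content and length. KLF4 (ENSG00000136826), which in epithelia goes with differentiation and with expression of the cell cycle inhibitor CDKN1A, had 31.6 and 34.6 CPM in siNSUN2 cells, against 14.8 and 13.7 CPM in siControl cells. The groups did not overlap, and the log2 fold change was 1.22 (SE 0.0705, adjusted p = 9.38e-07). KLF6 (ENSG00000067082), a widely expressed factor that is induced by injury and has been described as a tumour suppressor, had 421 and 431 CPM in siNSUN2 cells, against 203 and 221 CPM in siControl cells. Both siNSUN2 libraries were close to 2 times the controls, and its log2 fold change was 1.01 (SE 0.0483, adjusted p = 3.49e-07). KLF7 (ENSG00000118263), studied mostly in neurons and in fat cell precursors, had 52.0 and 51.9 CPM in siNSUN2 cells, against 35.1 and 36.6 CPM in siControl cells. Its libraries were tightly grouped, and its log2 fold change was 0.53 (SE 0.0467, adjusted p = 1.13e-05).

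KLF2 and KLF5 also rose, but each call depended on how the data were treated. KLF2 (ENSG00000127528), best known for its response to blood flow in endothelium and for quiescence of T cells, had 14.2 and 15.9 CPM in siNSUN2 cells, against 8.31 and 9.11 CPM in siControl cells (log2 fold change 0.78, SE 0.0906, adjusted p = 7.12e-05). With a correction of each library for trends on GC content and length, its log2 fold change went to 0.15 and was no longer called (edgeR quasi-likelihood test, adjusted p = 0.219). KLF5 (ENSG00000102554), the factor of proliferating basal epithelium, had 18.4 and 20.1 CPM in siNSUN2 cells, against 15.1 and 16.5 CPM in siControl cells. The groups were separate but near each other, and the log2 fold change was 0.28 (SE 0.0756, adjusted p = 0.0128). The call of KLF5 was lost without siControl replicate 1 (0.15, adjusted p = 0.219), without siNSUN2 replicate 2 (0.22, adjusted p = 0.0859) and with DESeq2 (0.24, adjusted p = 0.107).

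KLF3 (ENSG00000109787), the CtBP-binding repressor among the 10, had 68.9 and 62.2 CPM in siNSUN2 cells, against 45.2 and 45.9 CPM in siControl cells. The siNSUN2 libraries differed more from each other than the controls did, but all lay above them (log2 fold change 0.53, SE 0.0544, adjusted p = 3.73e-05). In the GENCODE release 29 annotation KLF3 shares 266 exon bases with the antisense gene KLF3-AS1, which had only 4 and 1 counts in siNSUN2 libraries and 9 and 54 counts in siControl libraries. Reads of the shared stretch cannot be told apart without the strand setting of the counting, which the sources used here do not state. KLF11 shares 416 exon bases with an antisense gene, AC104794.4, not analysed here. Of 8 processed pseudogenes named for members of the 10, 6 had 0 counts in every library, and the largest count of any was 12.

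The 4 factors that bind SIN3A were divided. KLF13 (ENSG00000169926), known in T cells as an activator of CCL5, had 64.6 and 63.5 CPM in siNSUN2 cells, against 29.3 and 30.8 CPM in siControl cells. The spread within each group was small beside the difference, and its log2 fold change was 1.09 (SE 0.0472, adjusted p = 2.06e-07). KLF10 (ENSG00000155090), first described as a gene induced early by TGF-beta, had 145 and 147 CPM in siNSUN2 cells, against 81.5 and 78.8 CPM in siControl cells (log2 fold change 0.87, SE 0.0415, adjusted p = 3.39e-07). KLF11 (ENSG00000172059), its closest relative and likewise induced by TGF-beta, had 10.8 and 10.5 CPM in siNSUN2 cells, against 4.97 and 4.73 CPM in siControl cells. Although KLF11 was much the rarer of this pair, its estimated fold was the larger, and its log2 fold change was 1.13 (SE 0.101, adjusted p = 1.29e-05). KLF10 and KLF11 were not tested against each other. KLF9 (ENSG00000119138), a target of glucocorticoid and thyroid hormone receptors, had 1.56 and 1.72 CPM in siNSUN2 cells, against 1.53 and 1.87 CPM in siControl cells. These values rest on 143 and 59 counts in siNSUN2 libraries and on 65 and 397 counts in siControl libraries, and the groups overlapped. Its log2 fold change of −0.06 had a 95% interval of −0.58 to 0.45 (edgeR quasi-likelihood test, adjusted p = 0.849). A difference in either direction within that interval is compatible with these counts.

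**Figure D2:**
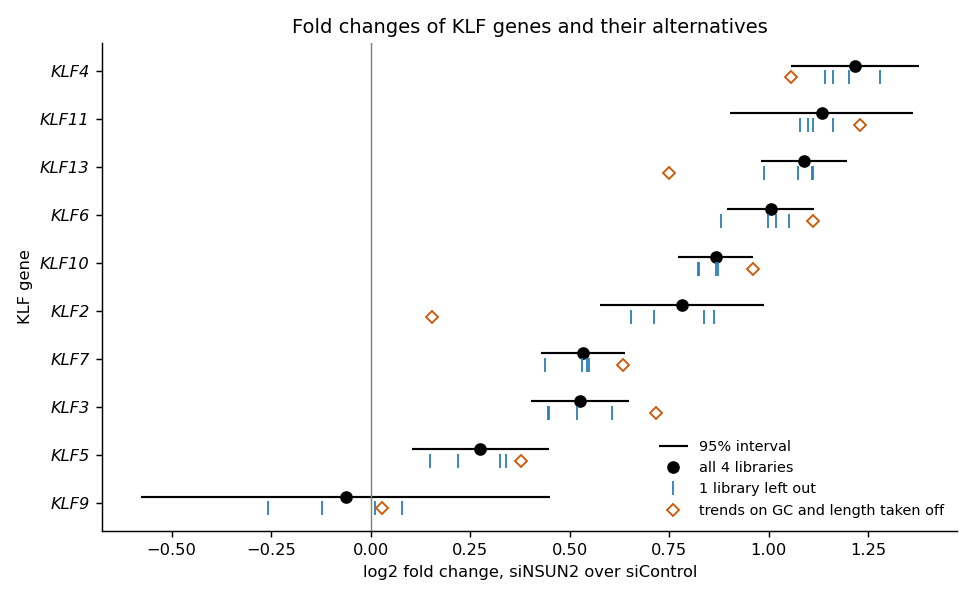
Log2 fold change of each KLF gene, siNSUN2 over siControl. Black points and lines give the estimate from all 4 libraries with its 95% interval, blue ticks the estimates with 1 library left out, and open diamonds the estimate corrected for GC content and length. KLF2 moved from 0.78 to 0.15 with that correction, KLF5 lay nearest to 0 of the genes that rose, and KLF9 had the widest interval.

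GC content went with the fold changes of all genes, so its values are given beside those of the KLF genes. When the tested genes were divided into 5 equal bins by the GC content of their transcripts, the bin of lowest GC content had a median log2 fold change of −0.22 and the bin of highest had 0.52. KLF2, at 65.2% GC, lay in the highest bin, where 58.2% of genes were called higher. KLF13 at 57.6% and KLF4 at 55.0% lay in bin 4 of 5, counted from the lowest, where 33.7% of genes were called higher and the median log2 fold change was 0.16. KLF5, KLF6, KLF9, KLF10 and KLF11, at 45.9% to 47.2%, lay in the middle bin, with a median of −0.04. In that bin 19.4% of genes were called higher and 26.1% lower. KLF3 at 41.5% and KLF7 at 43.8% lay in bin 2, where 13.9% of genes were called higher and 36.1% lower, and both rose. After the correction for GC content and length, the log2 fold changes were 1.06 for KLF4, 0.75 for KLF13, 1.11 for KLF6, 0.96 for KLF10, 1.23 for KLF11, 0.63 for KLF7, 0.72 for KLF3 and 0.38 for KLF5, all called. With that correction 3972 of the 16889 genes tested were called higher and 3968 lower. The median of the 10 genes was then 0.73, against 0.02 over all genes tested.

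**Figure D3:**
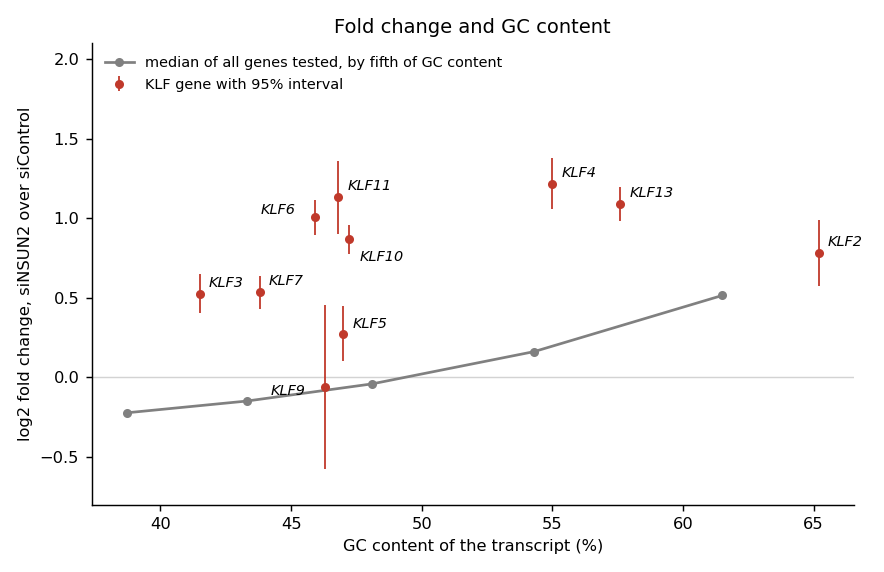
Log2 fold change, siNSUN2 over siControl, against the GC content of the transcript. Red points are the 10 KLF genes with 95% intervals, and the grey line joins the medians of all genes tested in 5 bins of GC content. KLF9 lay near the line and KLF5 and KLF2 closer to it than the other 7 genes.

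The 3′ UTRs of the 10 genes were searched for 2 kinds of word. The word ACCCTA was taken because an earlier look at the whole table had found it to go with fold changes, and ATTTA is the core of AU-rich elements, which mark short-lived mRNAs. ACCCTA occurred in the 3′ UTR of 2 of the 10 genes, KLF6 and KLF13, and of 21.1% of 12418 tested coding genes. The longer AACCCTA occurred in 0 of the 10 and in 7.71% of those genes. The 3 sites are shown with 9 bases on each side from GENCODE release 29 transcripts (GRCh38, sense strand, 5′ to 3′), with the word in capitals.
KLF6, base 114 of the 3′ UTR: ccgttctgcACCCTAcccagttgc
KLF13, base 1974 of the 3′ UTR: gaccgatggACCCTAaattgggca
KLF13, base 4641 of the 3′ UTR: gcgtcccctACCCTAcaagtcaca
ATTTA was present in all 10 of the 3′ UTRs and in 73.8% of the genes searched. Per kb of 3′ UTR the median was 2.37 copies in the 10 genes and 1.73 in all genes searched, from 0.893 in KLF13 to 3.56 in KLF2. KLF7 held the most copies, 20 in a 3′ UTR of 7076 bases. KLF9, which was not called, held 8 copies. The word TATTTAT was found in 5 of the 10 genes (KLF2, KLF5, KLF6, KLF7 and KLF11) and in 35.9% of the genes searched. Longer 3′ UTRs hold more words by their length, and the 10 genes ran from 843 bases (KLF2) to 7076 bases (KLF7), with a median of 1362 bases over the genes searched.

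Promoter windows from 250 bases before to 50 bases after the annotated gene start were given by RefSeq (GRCh38.p14) for 8 of the 10 genes, not for KLF3 and KLF10. Those of KLF2, KLF4, KLF6 and KLF13, which rose and have 1 window each, are shown because GC and CACCC boxes are the sites that KLF and SP factors bind. Capitals mark the GC box GGGCGG and the CACCC box CCACCC on either strand, with matches that overlap each other counted separately. In KLF13 a CCACCC match overlaps a GGGCGG match on the other strand.
KLF2, chr19:16324576-16324875, plus strand: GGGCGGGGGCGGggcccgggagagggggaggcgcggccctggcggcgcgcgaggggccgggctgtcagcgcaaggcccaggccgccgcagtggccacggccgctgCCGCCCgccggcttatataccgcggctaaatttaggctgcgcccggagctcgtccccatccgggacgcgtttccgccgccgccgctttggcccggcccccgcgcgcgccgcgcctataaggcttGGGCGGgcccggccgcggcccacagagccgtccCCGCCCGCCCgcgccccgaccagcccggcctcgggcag
KLF4, chr9:107489720-107490019, minus strand: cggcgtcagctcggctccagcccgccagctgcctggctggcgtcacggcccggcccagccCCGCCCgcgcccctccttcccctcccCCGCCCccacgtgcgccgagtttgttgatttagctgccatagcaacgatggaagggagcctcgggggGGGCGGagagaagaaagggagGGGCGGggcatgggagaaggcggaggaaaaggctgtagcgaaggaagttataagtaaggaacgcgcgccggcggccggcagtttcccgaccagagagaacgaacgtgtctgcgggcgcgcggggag
KLF6, chr10:3785160-3785459, minus strand: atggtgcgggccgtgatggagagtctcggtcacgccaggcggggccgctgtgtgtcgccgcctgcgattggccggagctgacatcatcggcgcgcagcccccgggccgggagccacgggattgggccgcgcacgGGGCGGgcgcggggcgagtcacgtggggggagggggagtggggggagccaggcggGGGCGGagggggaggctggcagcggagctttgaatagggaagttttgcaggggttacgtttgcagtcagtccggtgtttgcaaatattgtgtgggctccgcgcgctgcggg
KLF13, chr15:31326585-31326884, plus strand: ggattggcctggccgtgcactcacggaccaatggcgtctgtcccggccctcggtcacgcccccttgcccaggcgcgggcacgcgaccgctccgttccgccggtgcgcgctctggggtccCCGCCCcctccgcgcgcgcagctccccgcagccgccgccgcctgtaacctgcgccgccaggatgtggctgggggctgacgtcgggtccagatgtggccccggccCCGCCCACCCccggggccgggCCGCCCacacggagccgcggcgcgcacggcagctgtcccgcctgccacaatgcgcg
The windows held 6 GC boxes in KLF2, 4 in KLF4, 2 in KLF6 and 3 in KLF13, and the window of KLF13 also held a CACCC box. Among the promoters of 11049 tested genes, taking 1 window a gene, 69.5% held GGGCGG and 37.5% held CCACCC. GC content was 80.7% in the window of KLF2, 69.0% in KLF4, 70.7% in KLF6 and 78.3% in KLF13, against a median of 65.3% over those promoters. The window of KLF2 also held a match to the MEF2 element on either strand, found in 1.47% of the promoters, with its first base at position −120 from the gene start.
KLF2, MEF2 element in capitals: ataccgcggCTAAATTTAGgctgcgccc
KLF5, KLF7 and KLF11 have several annotated starts. KLF11 held 2 and 7 GC boxes in its 2 windows, KLF5 held 0 and 2, and KLF7 held 4 in 1 of its 4 windows and 0 in the others. The first window of KLF7 held 2 CACCC boxes. GC content was 77.3% and 75.3% in the windows of KLF11, 40.7% and 71.3% in those of KLF5, and 56.7%, 42.7%, 70.0% and 43.0% in those of KLF7, so windows of genes that rose lay on both sides of the median. The window listed for KLF9, at 32.7% GC, held 0 GC boxes. A match describes the letters of the window only, and the files do not say which start the T24 cells used.

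The rest of the family did not show the same count. Of 8 other KLF genes, 3 passed the low-count filter, of which none rose, KLF16 fell and KLF12 and KLF15 did not pass. KLF16, a SIN3A-binding factor, had 39.6 and 37.8 CPM in siNSUN2 cells, against 49.1 and 48.7 CPM in siControl cells (log2 fold change −0.34, adjusted p = 2.4e-04). Its transcript is 67.8% GC, and the log2 fold change went to −1.11 with GC content and length taken off. KLF12, a CtBP-binding repressor like KLF3, had 30.4 and 30.6 CPM in siNSUN2 cells, against 33.6 and 33.3 CPM in siControl cells. Both siNSUN2 libraries lay a little below the controls, and the log2 fold change of −0.13 missed the threshold (edgeR quasi-likelihood test, adjusted p = 0.0504). KLF12 passed it as lower under 5 of 14 alternatives and had 0.02 with GC content and length taken off. KLF15 had at most 28 counts in a library. Over all KLF genes, 13 of 18 were tested, 9 rose, 1 fell and 3 did not pass. Of all genes tested, 27.1% were called higher and 25.5% lower. The 10 genes were chosen with earlier results of these data known, so the count over all 13 is the less selected of the 2.

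The SP genes encode the closest relatives of the KLF factors and bind the same GC boxes. Of 9 SP genes, 5 were tested, and only SP2 was called, beside 52.6% of all genes tested called in either direction. SP2 had 25.1 and 23.3 CPM in siNSUN2 cells, against 20.1 and 19.2 CPM in siControl cells. Its log2 fold change was 0.31, and 0.08 with GC content and length taken off, where it was not called. SP1, the founding member, had 99.9 and 101 CPM in siNSUN2 cells, against 105 and 105 CPM in siControl cells. SP3 had 153 and 148 CPM in siNSUN2 cells, against 155 and 159 CPM in siControl cells. The log2 fold changes of −0.07 for SP1 and −0.06 for SP3 did not pass the test. Both passed without siControl replicate 1, at −0.13 and −0.15, and SP3 was called at 0.13 with the correction for GC content and length. The median log2 fold change of the 5 SP genes was −0.06, and it was 0.08 with that correction, so its sign turned.

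Among 13 corepressor genes of KLF factors, 7 fell and 2 rose, and the other 4 missed the threshold, at a median log2 fold change of −0.14, beside 25.5% of all genes tested called lower. With GC content and length taken off, 5 fell and 2 rose, and the median was −0.07. CTBP1 and CTBP2 encode the corepressors bound by KLF3. CTBP1 had 145 and 161 CPM in siNSUN2 cells, against 128 and 142 CPM in siControl cells, and did not pass (0.17, adjusted p = 0.0939, edgeR quasi-likelihood test). CTBP2 fell by 0.14 on the log2 scale, a call that was lost without siControl replicate 2 and without either siNSUN2 replicate, at −0.17 to −0.11. SIN3B, a scaffold of the complexes that KLF9, KLF10, KLF11 and KLF13 recruit, rose by 0.61 (0.16 with GC content and length taken off), while SIN3A and HDAC1 did not pass. NCOR1 fell by 0.56 on the log2 scale, HDAC2 by 0.26 (−0.10 with the correction) and SUDS3 by 0.29 (−0.15 with the correction). Of 7 genes for coactivators and nuclear receptors bound by KLF factors, 5 rose and 1 fell. Over all genes tested, 27.1% were called higher and 25.5% lower. With the correction 2 of these 7 rose and 3 fell. The nuclear receptor gene PPARG rose by 0.72, RARA by 0.56 (0.02 and not called with the correction) and KAT5 by 0.51 (0.19 with the correction), and the acetyltransferase gene KAT2B fell by 0.92 on the log2 scale.

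Levels of some KLF proteins, KLF2 and KLF5 among them, are set in part by ubiquitin-dependent breakdown. Of 14 genes for enzymes and adaptors of that turnover, 7 rose and 4 fell, beside 27.1% of all genes tested called higher and 25.5% lower. The other 3 missed the threshold, and the median log2 fold change of the 14 was 0.15. The median was 0.24 with GC content and length taken off, where 8 rose and 3 fell, and 5 rose without siControl replicate 1 or without siNSUN2 replicate 1. FBXW7, the adaptor that targets KLF5 and KLF2, had 23.7 and 22.0 CPM in siNSUN2 cells, against 16.4 and 17.3 CPM in siControl cells (log2 fold change 0.44). WWP1, a ligase for KLF5 and KLF2, rose by 0.14, and by 0.36 with GC content and length taken off. The call of WWP1 was lost without siControl replicate 1 (0.05) and without siNSUN2 replicate 1 (0.09). SMURF1 rose by 0.62, and BAP1, a deubiquitinase reported to stabilise KLF5, rose by 0.43 but had −0.01 with the correction. USP10 fell by 0.98, WWP2 by 0.55 (−0.85 with the correction) and ITCH by 0.47 (−0.28 with the correction) on the log2 scale. Protein levels were not measured.

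Among 18 upstream regulators of KLF genes, 8 rose, 4 fell and 6 did not pass, beside 27.1% of all genes tested called higher and 25.5% lower. Without siControl replicate 1 fewer of the 18 rose and more fell. TGFBR2, a receptor of TGF-beta, had 180 and 181 CPM in siNSUN2 cells, against 67.7 and 73.1 CPM in siControl cells (log2 fold change 1.36), and TGFBR1 rose by 0.62. MAPK7 (ERK5), the kinase that acts through MEF2 factors on KLF2 and KLF4, had 39.8 and 37.5 CPM in siNSUN2 cells, against 19.1 and 19.4 CPM in siControl cells. Its log2 fold change was 1.01, and 0.56 with GC content and length taken off. Of the 3 MEF2 factor genes in the list, MEF2A and MEF2D were called higher in the fit of all 4 libraries. Whether those calls held under the alternatives is not given here. MEF2C, with 2.08 and 2.72 CPM in siNSUN2 cells against 5.13 and 6.13 CPM in siControl cells, fell by 1.25 on the log2 scale, SMAD2 by 0.25 and the kinase gene MAP3K3 by 0.31 (−0.59 with the correction).

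Genes reported in other studies to be controlled by KLF factors were described in 3 lists, beside a share of 27.1% called higher over all genes tested. Of 15 tested for KLF4 or KLF5, 9 rose and 2 fell, and 4 missed the threshold, at a median log2 fold change of 0.31 (corrected, 0.24). CDKN1A, the p21 inhibitor of the cell cycle and an activated target of KLF4 and KLF6, had 237 and 237 CPM in siNSUN2 cells, against 108 and 112 CPM in siControl cells (log2 fold change 1.11). CCND1, described as activated by KLF5 and repressed by KLF4, rose by 0.78, CDKN1B rose by 0.55, and CCNB1, described as repressed by KLF4, fell by 0.70 on the log2 scale. EGFR, described as activated by KLF5, fell by 0.65 on the log2 scale. Of 13 tested for KLF6, KLF10 or KLF11, 10 rose and 1 fell, and 2 missed the threshold, at a median of 0.78. With the correction the median was 0.74, and 7 rose and 2 fell. ATF3, a stress-induced factor, had 197 and 190 CPM in siNSUN2 cells, against 71.1 and 71.4 CPM in siControl cells (1.44), and TGFB1 rose by 1.07 (0.51 with the correction). Of 7 tested for KLF2, KLF3, KLF9 or KLF13, 5 rose and none fell, and 2 missed the threshold, at a median of 0.54. With the correction the median was 0.39, and 3 rose and 1 fell. PER1, a clock gene, rose by 1.44 (0.88 with the correction), THBD, the thrombomodulin gene that KLF2 activates in endothelium, by 0.65, and HMOX1 by 0.30 (0.02 and not called with the correction). TGFBR1, TGFBR2 and SMAD2 also stand among the upstream regulators above. The lists mix genes that KLF factors raise with genes that they lower.

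Of 12 keratin and urothelial genes, 6 were tested, of which 1 rose, 1 fell and 4 did not pass. KRT7 rose by 0.29 (−0.23 with the correction), and UPK1B fell by 1.13 on the log2 scale. UPK1B was low, at 1.62 and 2.07 CPM in siNSUN2 cells, against 3.86 and 4.18 CPM in siControl cells. It had as few as 71 counts in a library. KRT18 had 608 and 511 CPM in siNSUN2 cells, against 603 and 633 CPM in siControl cells, and the groups overlapped. With the correction 0 of the 6 rose and 4 fell. Over all 16889 genes tested, 27.1% were called higher and 25.5% lower. With the correction 3972 of them were called higher and 3968 lower. EPCAM, CDH1 and KRT5, which mark epithelial and basal cells, did not pass the low-count filter, so several genes that define urothelium were too low to test in these T24 cells.

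**Figure D4:**
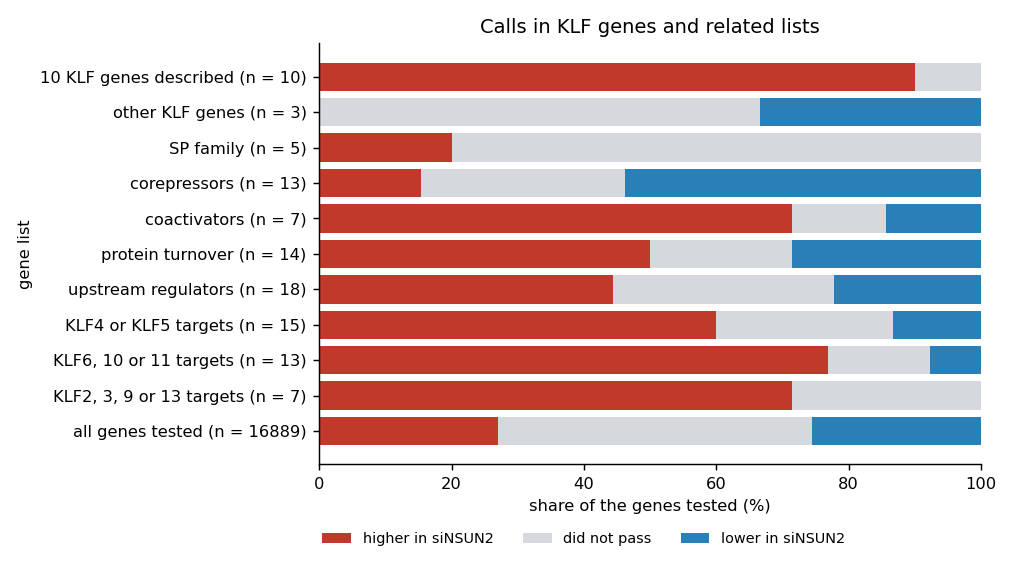
Share of the tested genes of each list that were higher in siNSUN2 (red), did not pass the test (grey) or were lower in siNSUN2 (blue), with the number tested beside each name. Of the 10 KLF genes 9 were higher, against 27.1% of all genes tested, and none of the 3 other KLF genes tested was higher. The list labelled coactivators also holds the nuclear receptor genes PPARG and RARA.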

How the data were processed

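Per the labels' protocols, mRNA was enriched from total RNA on magnetic beads, and libraries from a stranded kit were read as pairs. What the authors deposited is a single table of raw counts, with a row for each Ensembl gene. Per the submitters' processing notes, HISAT2, HTSeq and hg19 were used. Their versions, the annotation and the strand setting are not stated there, and 0 columns were left out.

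All 4 libraries were fitted with edgeR 4.0.16 in R 4.3.3 (TMM, filterByExpr, robust quasi-likelihood F-test, no replicate block, threshold 0.05), which kept 16889 genes. Log2 fold changes are siNSUN2 over siControl. Each standard error was computed as the log2 fold change over the root of F. CPM uses TMM-scaled library sizes, except that the summed cell type markers and the VIM values beside them use unscaled library totals. Groups of 2 allow no exact permutation p below 0.333. Replicates differed by more than a random split of the same counts would (chi-square of their counts over its degrees of freedom, 12.4 in siNSUN2 and 18.8 in siControl). That check cannot tell separate cultures from repeated handling of 1 RNA or 1 library. GC content and length came from the longest coding GENCODE 29 transcript, known for 96.4% of tested genes, and loess trends (span 0.3) were taken off as offsets. 3′ UTRs of at least 50 bases were searched. Members and lists were chosen with earlier results of these data known. From each list, up to 3 called genes a direction with the smallest p are named, and CTBP1, CTBP2, SP1, SP3, WWP1 and FBXW7 always. SIN3A, HDAC1, MEF2A, MEF2D, KRT18, EPCAM, CDH1 and KRT5 were named after their values were seen. A corepressor gene that the rule names and a blood marker are counted in their lists but not reported here by name. Protein sequences were not used here. Alternatives were DESeq2 1.42.0, limma-voom (limma 3.58.1), other scaling, filters and thresholds, the block, each library left out, thinning to the smallest total, and the GC and length correction.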

Additional observations from a re-analysis of the deposited data

How the results depend on the processing

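Of the 10 KLF genes, 8 or 9 were called higher and 0 lower under each of the 14 alternatives, and 8 or 9 with 1 library left out. Of the 9 genes that rose, KLF3, KLF4, KLF6, KLF7, KLF10, KLF11 and KLF13 kept their call under every one of them. KLF2 lost its call with the GC and length correction and KLF5 under 5 alternatives. KLF9, not called in any of the 13 that tested it, ran from −0.258 to 0.0779 with 1 library left out, above 0 without siControl replicate 2 and without siNSUN2 replicate 1 (0.0102), and had 0.029 with that correction. Against a fold of 1.2 the test called 2913 genes higher and 2529 lower over all genes. With 1 library left out, all genes called higher ranged from 3720 to 4231 and lower from 3750 to 4695, and without siControl replicate 1 all genes moved by a median of −0.067. The correction turned the sign of BAP1 (−0.014), CTBP1 (−0.27), CTBP2 (0.001), KLF12 (0.018), KRT7 (−0.23), SP1 (0.027) and SP3 (0.13). The cause was not tested. For the named genes and lists these alternatives were chosen after seeing the data.

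Replicate numbers are shared by both groups, but nothing says that a number marks a shared culture. Differences between replicates correlated at 0.156 between the groups over genes. With the number as a block, 9 KLF genes were called higher and 0 lower, and 5027 and 4788 of all genes. KLF12 (−0.13) and CTBP1 (0.17) were then called as well. Depth limits KLF9 most, with as few as 59 counts in a library.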
